A study of Mus musculus with 6 samples.

Results

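Hepa1-6 is a mouse hepatoma cell line, and its messenger RNA was sequenced after knockdown of Zfp207 by short hairpin. Described here are 48 genes of the machinery that holds and checks chromosomes on the spindle, namely Zfp207, Bub3 and the other BUB3 partners, the remaining spindle checkpoint genes, the chromosomal passenger complex and the kinetochore and centromere genes. They were taken by name from the 34718 genes of the deposited count table, and all 48 were found and had enough counts to be tested, among 11975 genes tested in all. The knockdown cells were those of the 3 libraries titled shZfp207, a hairpin against Zfp207, and they were set against the 3 libraries titled shNC, whose genotype is given as control. Both groups are the same line, grown in DMEM with serum and antibiotics and carrying no other stated treatment. How many hairpins were used is not stated, and loss of Zfp207 and an off-target action of a hairpin cannot be told apart. The tissue is labelled as tumor although the growth protocol describes culture. Whether the replicates were separate cultures is also not given, and p-values therefore measure only the spread between these libraries.

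ZNF207, the human counterpart of Zfp207 and also known as BuGZ, is a zinc finger protein that binds microtubules. It binds the checkpoint protein BUB3 through a short stretch called the GLEBS motif. BUB1 and BUBR1 (the product of Bub1b) carry GLEBS motifs of their own. BUB3 docks BUB1 and BUBR1 at the outer kinetochore, and BuGZ stabilizes BUB3 and promotes its loading there. At kinetochores without microtubules, MPS1, MAD1 and MAD2 turn this platform into a source of the inhibitor that holds back CDC20 and the anaphase-promoting complex. The NDC80 and SKA complexes bind the microtubule, the MIS12 complex and the constitutive centromere-associated network tie them to CENP-A chromatin, and Aurora B in the chromosomal passenger complex releases wrong attachments. Transcripts of many of these genes are known to peak in G2 and mitosis.

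The libraries held 15236957, 15074588 and 14629661 counts for shZfp207 replicates 1 to 3, and 11933736, 14591630 and 16248346 for shNC replicates 1 to 3. The 48 genes together took between 0.306% and 0.315% of the counts in shZfp207 cells, against 0.321% to 0.347% in shNC cells, with between 41 and 4747 counts per gene and library. This sum includes the knocked-down gene Zfp207, with 685 to 732 counts in shZfp207 libraries, against 1688 to 3522 in shNC libraries. The share without Zfp207 is not given, so the gap is not a result about the other genes. One library stood apart. Mitochondrially encoded genes took 5.6% to 6.0% of the counts in the shZfp207 libraries, against 10.51% in shNC replicate 1 and 2.89% and 2.67% in shNC replicates 2 and 3. Results are therefore given with all libraries and without shNC replicate 1, and the part of its difference in any result was not tested beyond leaving it out. A list of 11 hepatocyte lineage genes moved in both directions. Of 9 tested, Alb, Afp, Apoa1 and Fgb were higher and Apoa2, Apoe and Trf lower in shZfp207 cells, 77.8% beside 20.6% of all genes tested by the same edgeR test. Its sum, mostly Alb, Afp and Apoe, was 6274 to 6472 CPM (counts scaled to 1000000 per library) in shZfp207 cells, against 3929 to 5083 CPM in shNC cells, and Ttr and Serpina1a had at most 10 counts in every library. A list of 10 genes of other cell types summed to 8.86 to 10.3 CPM in shZfp207 cells, against 17.2 to 23.9 CPM in shNC cells, and most of it was the epithelial gene Epcam. The other 9 genes, of immune, endothelial and stromal cells, summed to 2.52 to 3.02 CPM in shZfp207 cells, against 0.685 to 2.18 CPM in shNC cells. Of the 10 genes, 7 had at most 10 counts in every library, and Cd3e and Cd8a were at 0 throughout. The part of these differences in the results below was not tested.

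Of the 48 genes, 5 were lower and 0 higher in shZfp207 cells at an adjusted p below 0.05 in edgeR's quasi-likelihood test, adjusted over all 11975 genes. They were the knocked-down gene Zfp207, Bub3, Spdl1, Ndc80 and Cenpq. This is 10.4% of the 48, beside 20.6% of all genes tested (9.92% higher and 10.7% lower). The median log2 fold change of the 47 genes other than Zfp207 was -0.02, beside -0.03 over all genes tested, and their values ran from -0.76 to 0.35. At an unadjusted p below 0.05 there were 10 of 48, beside 35.9% of all genes tested. The 3 shZfp207 libraries lay wholly above the 3 shNC libraries at 4 genes and wholly below at 8, together 12 of 48, beside 44.7% of all genes tested (22.3% above and 22.4% below). All 3 shares were below the background. Zfp207, lowered by the knockdown itself, counts in each of them. Among the other 47 genes the numbers were 4 (8.51%), 9 and 11. In bulk RNA, fewer cells in a stage of the cycle and less RNA per cell cannot be told apart.

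Without shNC replicate 1 the share of all genes called was 52.1% (26.1% higher and 26.1% lower), and 22 of the 48 were called, 11 higher and 11 lower. These 22 are 45.8% of the 48, again below the background, and include the 5 called with all libraries, each still lower. Among the 47 genes other than Zfp207, 21 were called (44.7%), 11 higher and 10 lower. The 11 higher were Bub1, Aurkb, Birc5, Cdca8, Aurka, Spc24, Dsn1, Ska1, Cenpa, Cenpb and Cenpi. Beside the 5, the lower ones were Mad2l2, Ttk, Tpx2, Cenpc1, Cenpn and Cenpe. Groups did not overlap at 31 of 48, beside 70.3% of all genes. Over 13 fits, the one with all libraries and 12 with another scaling, filter, tool or set of libraries, 2 of the 48 genes, Zfp207 and Ndc80, were called in every one, 26 were called in none, and 15 were called in the fit without shNC replicate 1 and in no other.

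**Figure D1:**
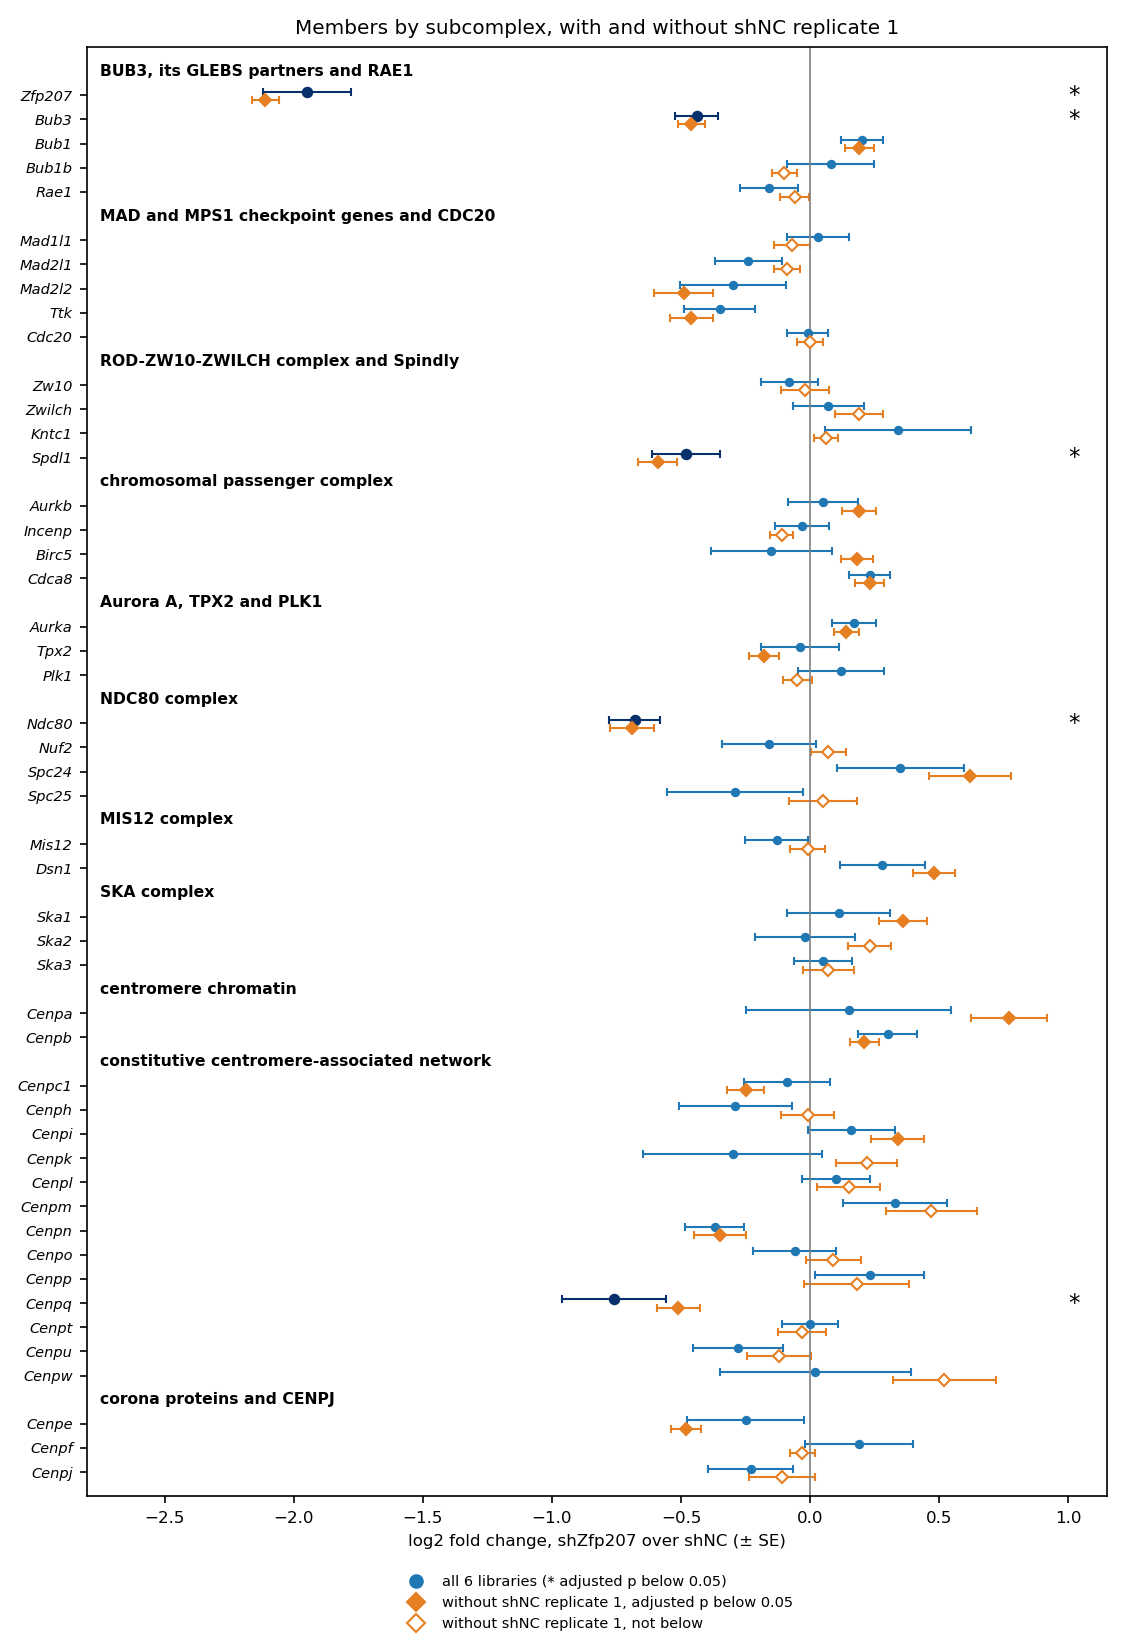
Log2 fold change of shZfp207 over shNC cells (x axis, bars ± SE) for the 48 genes (y axis), grouped by subcomplex. Circles use all 6 libraries and diamonds leave out shNC replicate 1; stars and filled diamonds mark an edgeR adjusted p below 0.05, reached by 5 genes with all libraries and by 22 without that library.

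The sequences just before a RefSeq start of 4 of the 5 called genes are shown first. These genes fell in the same cells and are not the gene that was knocked down. Each is the 250 bases before the start of the RefSeq gene in GRCm38.p6, read 5′ to 3′ on the gene's strand. Capitals mark matches on either strand to 3 short motifs known from promoters of cell cycle genes: TTTGAA (the CHR element of G2/M genes, read as TTCAAA on the other strand), CCAAT (the box bound by NF-Y, ATTGG on the other strand), and the E2F forms TTTGGCGC, TTTCGCGC, TTTGCCGC and TTTCCCGC. The windows are at chr7:131560120-131560369 (plus strand) for Bub3, chr17:71526858-71527107 (minus strand) for Ndc80, chr11:34833642-34833891 (minus strand) for Spdl1 and chr17:40934575-40934824 (minus strand) for Cenpq.
Bub3: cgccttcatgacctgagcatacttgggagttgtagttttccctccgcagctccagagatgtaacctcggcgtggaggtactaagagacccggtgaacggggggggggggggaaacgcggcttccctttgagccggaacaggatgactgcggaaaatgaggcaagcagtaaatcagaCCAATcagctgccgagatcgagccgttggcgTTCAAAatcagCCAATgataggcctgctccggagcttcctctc
Ndc80: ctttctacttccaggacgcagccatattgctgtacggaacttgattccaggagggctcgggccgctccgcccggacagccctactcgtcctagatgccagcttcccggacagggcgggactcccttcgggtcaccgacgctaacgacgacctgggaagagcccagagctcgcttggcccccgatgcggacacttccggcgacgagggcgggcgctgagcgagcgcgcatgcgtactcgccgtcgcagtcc
Spdl1: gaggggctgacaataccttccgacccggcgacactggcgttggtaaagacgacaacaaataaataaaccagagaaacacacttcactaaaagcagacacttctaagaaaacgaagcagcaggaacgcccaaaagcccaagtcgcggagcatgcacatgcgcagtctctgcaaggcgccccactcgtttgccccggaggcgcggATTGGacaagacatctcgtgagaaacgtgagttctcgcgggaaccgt
Cenpq: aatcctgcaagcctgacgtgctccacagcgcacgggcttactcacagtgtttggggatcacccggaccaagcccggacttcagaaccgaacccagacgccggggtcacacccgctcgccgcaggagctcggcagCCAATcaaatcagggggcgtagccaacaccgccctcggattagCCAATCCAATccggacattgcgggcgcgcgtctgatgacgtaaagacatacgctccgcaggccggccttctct
RefSeq gives Bub3 another, overlapping start further downstream, not shown here, and the start in the deposited table lies between both. In the Bub3 window printed here TTCAAA began 43 bases before the start and CCAAT 74 and 32 bases before it. Counted from the downstream start, the same letters lay 167, 198 and 156 bases before it. The Spdl1 window held an ATTGG 47 bases before the start. The Cenpq window held CCAAT at 116, 73 and 68 bases before its RefSeq start. That window lies inside Cenpq as the deposited table places it, with the minus-strand start at 40935047. These CCAAT positions are therefore not upstream of the start of the gene as counted. In the Ndc80 window none of the 3 motifs was found. Entries existed for 42 of the 48 genes, in 47 windows because some genes have several starts. CCAAT or its reverse was present in 28 of these 47 windows (59.6%), against 33.8% of 32851 windows of all genes. The CHR letters were in 9 of 47 (19.1%), against 16.0% of all, and an E2F form in 4 of 47 (8.51%), against 1.86% of all. A match is a string of letters, not a bound site, and base composition of the windows was not taken into account.

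Zfp207 checks the labels. It had 48, 48.5 and 47.3 CPM in shZfp207 replicates 1 to 3, against 139.8, 199 and 216 CPM in shNC replicates 1 to 3. Values per library here and below are CPM after TMM scaling, the scale of the test. Every shZfp207 library lay far below every shNC library, and the control values spread more widely than the knockdown values. The means were 47.9 ± 0.614 CPM in shZfp207 cells and 185 ± 40.0 CPM in shNC cells (SD, n = 3 each), a log2 fold change of -1.95 (standard error 0.17, edgeR adjusted p = 0.00236). Without shNC replicate 1, the lowest control, it was -2.11 (edgeR adjusted p = 5.45e-06). The gene (ENSMUSG00000017421) runs from 80383279 to 80405733 on the plus strand of chromosome 11 in mm10.

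Bub3, which encodes the WD40 protein bound by the GLEBS motifs, fell in shZfp207 cells. It had 179, 183 and 179 CPM in the shZfp207 libraries, against 239, 261 and 236 CPM in the shNC libraries. The groups did not overlap, and the shZfp207 libraries differed from each other by only a few CPM. The means were 180.1 ± 2.14 CPM in shZfp207 cells and 245 ± 13.6 CPM in shNC cells (SD, n = 3 each), and the log2 fold change was -0.44 (standard error 0.0846, edgeR adjusted p = 0.0151). Without shNC replicate 1 it was -0.46 (edgeR adjusted p = 0.000387). With single libraries left out, the value stayed between -0.47 and -0.40, while the call was lost without shNC replicate 2 or without any 1 shZfp207 library (highest edgeR adjusted p = 0.0912). Bub3 (ENSMUSG00000066979) lies at 131560391 to 131571898 on the plus strand of chromosome 7.

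Neither checkpoint gene whose product docks on BUB3 was called with all libraries. Bub1, whose kinase marks centromeric histone H2A and recruits shugoshin, had 84.1, 90.8 and 88.6 CPM in shZfp207 cells, against 75.4, 78.2 and 76.2 CPM in shNC cells. Its groups did not overlap, with shZfp207 cells on the higher side, but the log2 fold change of 0.20 missed the threshold (standard error 0.0813, edgeR adjusted p = 0.134). It passed without shNC replicate 1, at 0.19 (edgeR adjusted p = 0.0289). Bub1b, which encodes the BUBR1 component of the checkpoint inhibitor, had 135, 135 and 144 CPM in shZfp207 cells, against 97.8, 151 and 144 CPM in shNC cells. The groups overlapped, because shNC replicate 1 was the lowest of all 6 libraries and shNC replicates 2 and 3 the highest. Its log2 fold change of 0.08 (edgeR adjusted p = 0.781) was -0.10 without shNC replicate 1 (edgeR adjusted p = 0.137). Rae1, an mRNA export factor that resembles BUB3 and binds a GLEBS motif in NUP98, had 120.0, 115 and 127 CPM in shZfp207 cells, against 154, 123 and 128 CPM in shNC cells. Its groups overlapped (log2 fold change -0.16, edgeR adjusted p = 0.356), and without shNC replicate 1 the value was -0.06 (edgeR adjusted p = 0.44). Of the nuclear pore genes next to Rae1, 2 could be tested and 0 were called with all libraries, beside 20.6% of all genes. Without shNC replicate 1, 2 of 2 were called lower, beside 26.1% of all genes. Nup98 had 140.2, 151 and 154 CPM in shZfp207 cells, against 40.7, 164 and 165 CPM in shNC cells, a log2 fold change of 0.27 (edgeR adjusted p = 0.721) that was -0.15 without shNC replicate 1 (edgeR adjusted p = 0.0492). Nup88 had a log2 fold change of -0.07 with all libraries and -0.21 without shNC replicate 1 (edgeR adjusted p = 0.769 and 0.0188).

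**Figure D2:**
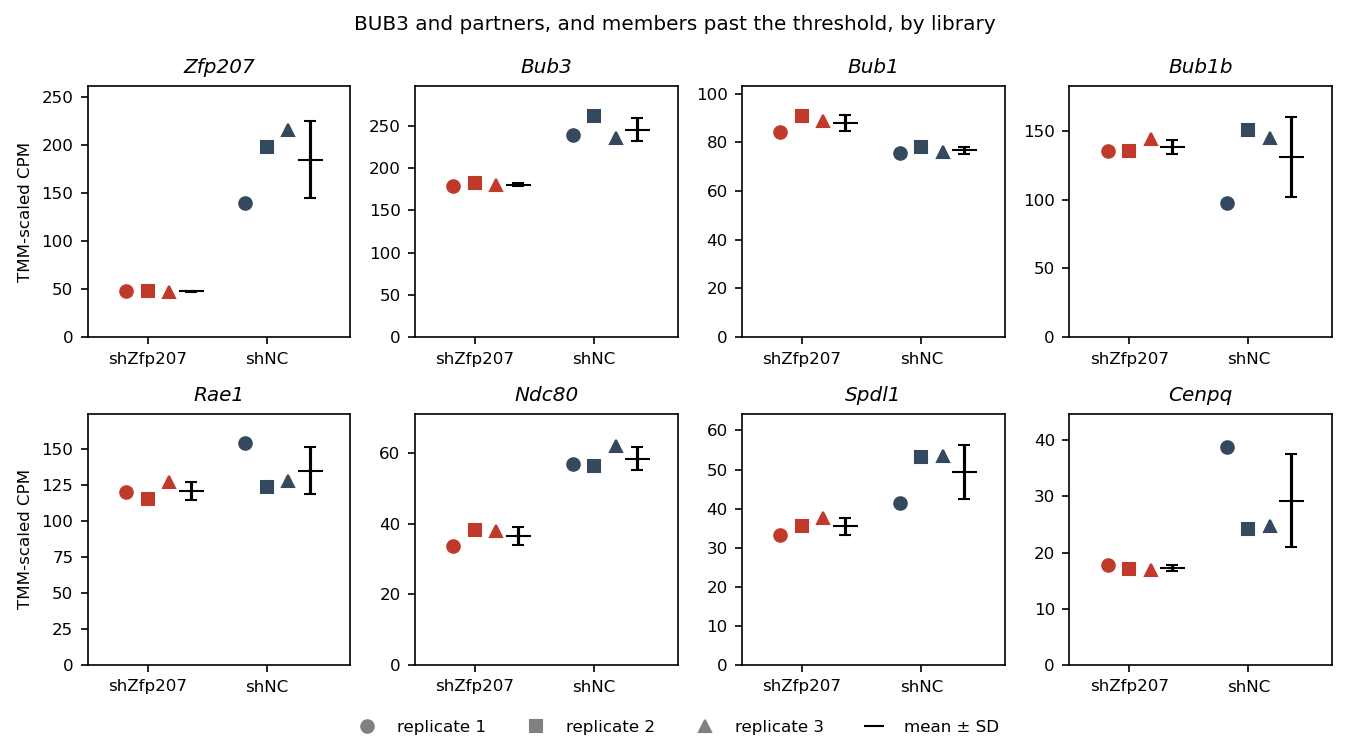
TMM-scaled CPM (y axis, from 0) of Zfp207, Bub3 and the BUB3 partners, and of the other genes past the threshold, in the 3 shZfp207 libraries (left) and 3 shNC libraries (right); symbols are replicates and bars the mean ± SD. Zfp207, Bub3, Ndc80, Spdl1 and Cenpq are lower in every shZfp207 library than in every shNC library, Bub1 is higher, and Bub1b and Rae1 overlap.

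Levels of different genes can be set side by side only per length, for which the deposited FPKM values serve. Bub3 had the highest FPKM of the 48 genes in both groups, 87.0 in shZfp207 cells and 119 in shNC cells. The ratio of Bub3 to Bub1 in FPKM was 5.37, 5.09 and 5.13 in the shZfp207 libraries, against 8.03, 8.44 and 7.83 in the shNC libraries. For Bub3 to Bub1b the ratio was 3.10, 3.17 and 2.93 in shZfp207 libraries, against 5.75, 4.07 and 3.84 in shNC libraries. Zfp207 to Bub3 gave 0.0618, 0.061 and 0.0605 in shZfp207 libraries, against 0.134, 0.175 and 0.211 in shNC libraries. Bub3 to Rae1 gave 2.49, 2.66 and 2.36 in shZfp207 libraries, against 2.61, 3.54 and 3.10 in shNC libraries, which overlapped. The other ratios here did not overlap between the groups. Each ratio holds Bub3, itself called as lower with all libraries, and no share over other gene pairs was computed. The ratios were not tested because they combine genes already tested. The median FPKM of the 48 genes was 9.14 in shZfp207 cells and 10.1 in shNC cells, beside 5.69 and 5.65 for all genes tested. Part of that gap is Zfp207 itself, below the median in shZfp207 cells (5.31) and above it in shNC cells (20.7). The length behind each FPKM was read back from the deposited count and FPKM values. It exceeded the longest annotated coding sequence by very different factors, up to 24.2 times for Cenpa and 16.9 times for Mad2l1, so that order between genes is approximate. For Bub3 it was 2.06 kb, against 7.01 kb of exonic sequence in a GENCODE annotation. A longer length would lower the FPKM of Bub3, so its top rank rests on the length used.

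**Figure D3:**
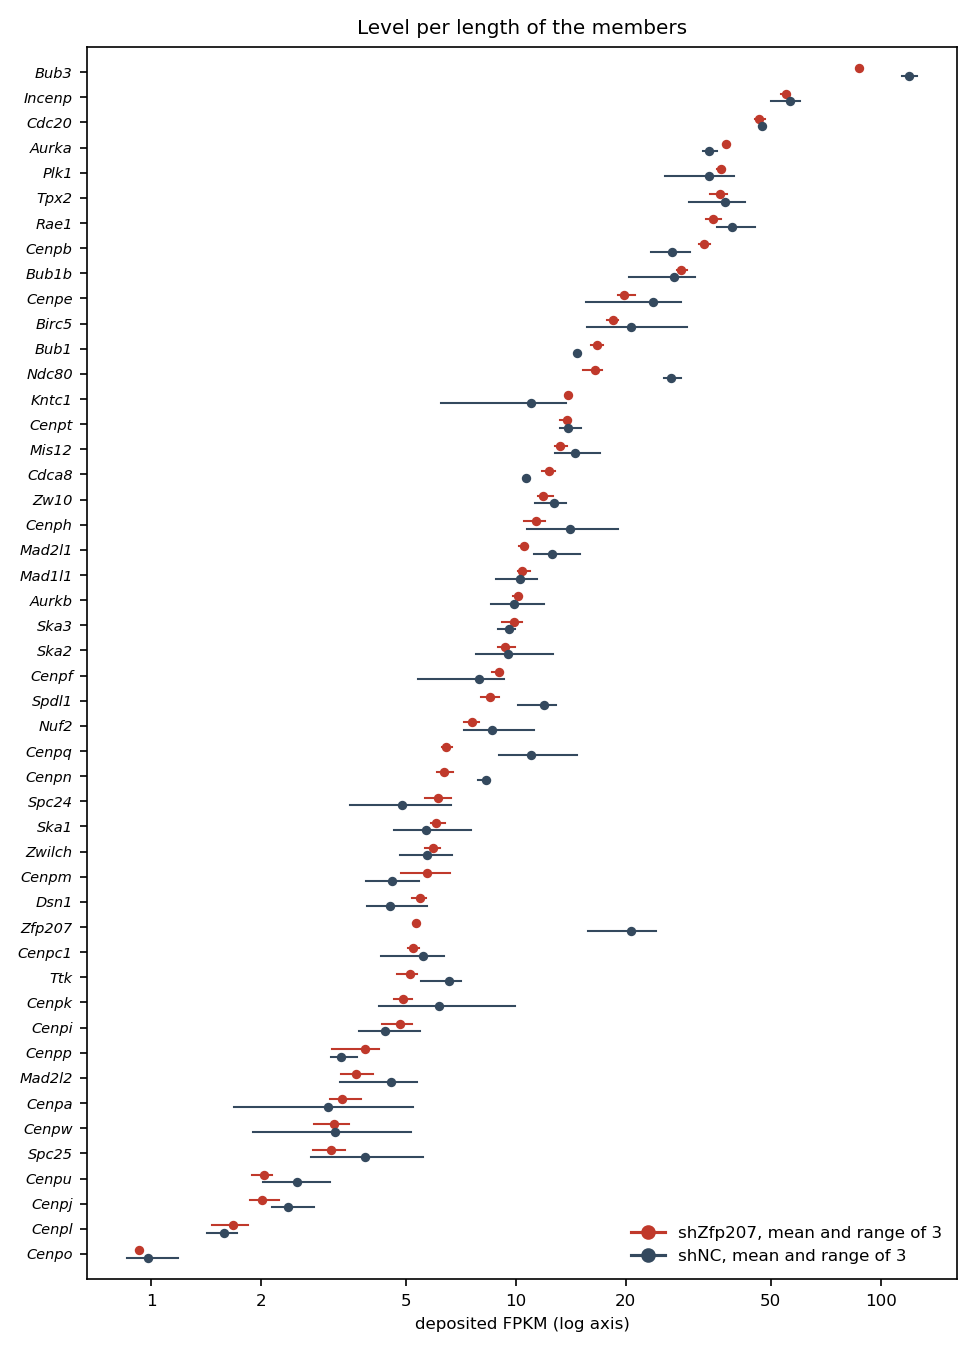
Deposited FPKM (x axis, log scale) of the 48 genes, ordered by their level in shZfp207 cells. Points are means of 3 libraries and lines their range; Bub3 is at the top with 87.0 in shZfp207 cells and 119 in shNC cells, and Zfp207 has 5.31 in shZfp207 cells and 20.7 in shNC cells.

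None of the 5 genes of the MAD and MPS1 group was called, beside 20.6% of all genes. Mad2l1, whose product MAD2 binds CDC20 in the inhibitory complex, had 106, 114 and 112 CPM in shZfp207 cells, against 155, 119 and 116 CPM in shNC cells. The groups did not overlap, but shNC replicate 1 was far above all others, and the log2 fold change of -0.24 (edgeR adjusted p = 0.243) was -0.09 without it (edgeR adjusted p = 0.166). Ttk, which encodes the MPS1 kinase that starts checkpoint signalling, had 27.6, 31.5 and 31.0 CPM in shZfp207 cells, against 31.7, 41.4 and 41.3 CPM in shNC cells. These groups were separated by a narrow gap above shZfp207 replicate 2. Its log2 fold change was -0.35 (standard error 0.138, edgeR adjusted p = 0.124), and -0.46 without shNC replicate 1, where it passed (edgeR adjusted p = 0.00349). Mad2l2, which encodes the MAD2-like protein REV7 of translesion synthesis, had 14.0, 17.3 and 15.3 CPM in shZfp207 cells, against 13.7, 21.0 and 22.5 CPM in shNC cells. Its shNC replicate 1 lay below all shZfp207 libraries and the other controls above them, and the log2 fold change of -0.30 (edgeR adjusted p = 0.339) became -0.49 without that library (edgeR adjusted p = 0.00955). Mad1l1, the kinetochore anchor of MAD2, and Cdc20, the target of the checkpoint, had log2 fold changes of 0.03 and -0.01 with all libraries (edgeR adjusted p = 0.886 and 0.918) and of -0.07 and 0.00 without shNC replicate 1.

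Spdl1 was the called gene of the ROD, ZW10 and Zwilch group, 1 of 4 (25.0%), near the 20.6% of all genes. It encodes Spindly, the adaptor that brings dynein to the corona and allows checkpoint proteins to be stripped from attached kinetochores. It had 33.3, 35.5 and 37.7 CPM in shZfp207 cells, against 41.3, 53.3 and 53.4 CPM in shNC cells. The groups did not overlap, and shNC replicate 1 was the control nearest to the shZfp207 libraries. The means were 35.5 ± 2.18 CPM in shZfp207 cells and 49.3 ± 6.92 CPM in shNC cells (SD, n = 3 each), and the log2 fold change was -0.48 (standard error 0.131, edgeR adjusted p = 0.0461). This is just inside the threshold: without shNC replicate 1 the value was -0.59 (edgeR adjusted p = 0.000753), and the call was lost without any 1 of the other 5 libraries (highest edgeR adjusted p = 0.163). It was also lost under RLE scaling and with no filter on low counts (edgeR adjusted p = 0.052 and 0.0738). Spdl1 (ENSMUSG00000069910) lies at 34809190 to 34833641 on the minus strand of chromosome 11.

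The complex that carries Spindly to kinetochores gave no call in either fit. Kntc1, which encodes its large ROD subunit, had 126, 130.1 and 129 CPM in shZfp207 cells, against 56.3, 126 and 120.1 CPM in shNC cells. Here shNC replicate 1 lay far below every other library. This gave a log2 fold change of 0.34 (standard error 0.284, edgeR adjusted p = 0.431) with it and 0.06 without it (edgeR adjusted p = 0.33). Zw10 and Zwilch, its other subunits, had -0.08 and 0.07 (edgeR adjusted p = 0.666 and 0.757), and -0.02 and 0.19 without that library.

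In the chromosomal passenger complex, 0 of 4 genes were called with all libraries, beside 20.6% of all genes, and 3 were higher without shNC replicate 1, beside 26.1%. Cdca8, which encodes borealin, had 81.5, 84.9 and 78.4 CPM in shZfp207 cells, against 69.4, 69.2 and 69.9 CPM in shNC cells. The groups did not overlap, and shNC replicate 1 lay with the other controls. The difference on the log2 scale was 0.23 (standard error 0.0813, edgeR adjusted p = 0.0891) with all libraries and 0.23 without shNC replicate 1 (edgeR adjusted p = 0.0135), and DESeq2 called it with all libraries (adjusted p = 0.046). Birc5, which encodes survivin, the subunit that reads phosphorylated histone H3, had 76.7, 75.2 and 80.6 CPM in shZfp207 cells, against 122, 65.9 and 70.5 CPM in shNC cells. In shNC replicate 1 it was above every shZfp207 library and in shNC replicates 2 and 3 below them, and its log2 fold change was -0.15 with all libraries (edgeR adjusted p = 0.687) and 0.18 without shNC replicate 1 (edgeR adjusted p = 0.0428). Aurkb, the kinase of the complex, was placed likewise, at 0.05 with all libraries (edgeR adjusted p = 0.822) and 0.19 without shNC replicate 1 (edgeR adjusted p = 0.0403). Incenp, the scaffold, had -0.03 (edgeR adjusted p = 0.888) and -0.11 (edgeR adjusted p = 0.0726).

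The spindle pole kinase gene Aurka, its activator Tpx2 and the mitotic kinase gene Plk1 gave no call with all libraries. Aurka had 147, 152 and 145 CPM in shZfp207 cells, against 125, 139 and 130.2 CPM in shNC cells. All 3 shZfp207 libraries were above the controls by a modest margin, with a log2 fold change of 0.17 (edgeR adjusted p = 0.194), and of 0.14 without shNC replicate 1 (edgeR adjusted p = 0.0482). Tpx2 had -0.04 (edgeR adjusted p = 0.893), and passed as lower without shNC replicate 1 at -0.18 (edgeR adjusted p = 0.0341). Plk1 had 0.12 and, without that library, -0.05 (edgeR adjusted p = 0.643 and 0.52).

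Ndc80 fell in shZfp207 cells and was the called gene of its complex, 1 of 4 (25.0%), near the 20.6% of all genes. It encodes HEC1, the subunit whose calponin homology domain and tail contact the microtubule. It had 33.7, 38.3 and 37.9 CPM in shZfp207 cells, against 57.1, 56.3 and 62.2 CPM in shNC cells. The groups were well apart, and shNC replicate 1 lay between the other controls. The means were 36.7 ± 2.56 CPM in shZfp207 cells and 58.5 ± 3.19 CPM in shNC cells (SD, n = 3 each), and the log2 fold change was -0.68 (standard error 0.1, edgeR adjusted p = 0.00747). Without shNC replicate 1 it was -0.69 (edgeR adjusted p = 0.000606), and the call held with each library left out (highest edgeR adjusted p = 0.0491). Ndc80 (ENSMUSG00000024056) lies at 71496100 to 71526857 on the minus strand of chromosome 17.

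The partners of NDC80 in the rod-shaped complex had no call with all libraries, and without shNC replicate 1 the complex had 2 of 4, beside 52.1% of all genes. Nuf2, its direct partner at the microtubule end, had 55.3, 58.7 and 61.6 CPM in shZfp207 cells, against 85.1, 56.4 and 55.3 CPM in shNC cells. The shZfp207 libraries were close to shNC replicates 2 and 3, and shNC replicate 1 was the highest. Fitted on the log2 scale, the change was -0.16 (edgeR adjusted p = 0.561), and 0.07 without shNC replicate 1 (edgeR adjusted p = 0.442). In FPKM the ratio of Ndc80 to Nuf2 was 2.12, 2.27 and 2.15 in shZfp207 libraries, against 2.34, 3.48 and 3.92 in shNC libraries, which did not overlap. That ratio holds Ndc80, itself called as lower. It was not tested, and no share over other gene pairs was computed. Spc24, on the centromere side, had 8.13, 7.69 and 9.04 CPM in shZfp207 cells, against 8.86, 6.05 and 4.73 CPM in shNC cells. Its log2 fold change was 0.35 (edgeR adjusted p = 0.359) and, without shNC replicate 1, 0.62 (edgeR adjusted p = 0.0151), the opposite direction to Ndc80. Spc25, its partner, had -0.29 with all libraries and 0.05 without that library (edgeR adjusted p = 0.474 and 0.775).

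Neither the MIS12 complex nor the SKA complex gave a call with all libraries. Dsn1, the MIS12 subunit that Aurora B phosphorylates to strengthen binding to CENP-C, had 30.0, 31.3 and 28.8 CPM in shZfp207 cells, against 31.0, 21.7 and 21.4 CPM in shNC cells. The shZfp207 libraries were above shNC replicates 2 and 3 but level with shNC replicate 1. The fitted log2 fold change was 0.28 (edgeR adjusted p = 0.267), and 0.48 without shNC replicate 1 (edgeR adjusted p = 0.00278). Ska1, which encodes the microtubule-binding SKA subunit, was highest in shNC replicate 1 and lowest in shNC replicates 2 and 3, with 0.11 (edgeR adjusted p = 0.726) and 0.36 (edgeR adjusted p = 0.0157). Mis12, Ska2 and Ska3 had -0.13, -0.02 and 0.05 with all libraries and -0.01, 0.23 and 0.07 without shNC replicate 1, with no call in either fit. Of the exonic sequence of Ska2, 10.1% overlaps a gene on the opposite strand, and since a strand setting is not given its counts may be mixed.

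Cenpa, the centromeric histone H3 variant, differed more between the fits with and without shNC replicate 1 than any other of the 48 genes. It had 30.0, 36.9 and 31.0 CPM in shZfp207 cells, against 50.3, 16.5 and 21.7 CPM in shNC cells. One control was above and the others below all shZfp207 libraries. Its log2 fold change was 0.15 (standard error 0.397, edgeR adjusted p = 0.816) with all libraries, and 0.77 without shNC replicate 1 (standard error 0.147, edgeR adjusted p = 0.00429). Cenpb, which encodes the protein that binds a short box in satellite DNA, had 167, 163 and 157 CPM in shZfp207 cells, against 113, 133 and 147 CPM in shNC cells. Its groups did not overlap, and shNC replicate 1 was the lowest. It had log2 fold changes of 0.30 (edgeR adjusted p = 0.105) and 0.21 without that library (edgeR adjusted p = 0.019).

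In the constitutive centromere-associated network, 1 of 13 genes was called, beside 20.6% of all genes, and 4 without shNC replicate 1, beside 52.1%. Cenpq, the called one, encodes a subunit of the CENP-O/P/Q/U/R group, which in human cells helps to recruit PLK1 and CENP-E. It had 17.8, 17.0 and 16.9 CPM in shZfp207 cells, against 38.8, 24.2 and 24.8 CPM in shNC cells. The groups did not overlap, and shNC replicate 1 was well above the other controls. The means were 17.3 ± 0.5 CPM in shZfp207 cells and 29.3 ± 8.28 CPM in shNC cells (SD, n = 3 each), and the log2 fold change was -0.76 (standard error 0.201, edgeR adjusted p = 0.0409). Without shNC replicate 1 it was smaller, -0.51, but with a smaller p (edgeR adjusted p = 0.00224). The call was lost without shNC replicate 3 or any 1 shZfp207 library (highest edgeR adjusted p = 0.141). Cenpq (ENSMUSG00000023919) lies at 40923051 to 40935047 on the minus strand of chromosome 17, and 3.6% of its exonic sequence overlaps Mut on the opposite strand.

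Its neighbours in that group were not called. Cenpu, which encodes the PLK1-binding subunit, had 10.6, 12.1 and 11.9 CPM in shZfp207 cells, against 17.1, 11.4 and 13.6 CPM in shNC cells, with overlap (log2 fold change -0.28, edgeR adjusted p = 0.292). It was -0.12 without shNC replicate 1 (edgeR adjusted p = 0.436). Cenpo and Cenpp had -0.06 and 0.23 (edgeR adjusted p = 0.823 and 0.487), and 0.09 and 0.18 without that library. Exonic overlap with genes on the opposite strand was 26.7% for Cenpu, 22.5% for Cenpo and 12.6% for Cenpp, so these 3 values are uncertain. Cenpn, whose product reads the CENP-A nucleosome together with CENP-L, had 11.9, 11.2 and 10.9 CPM in shZfp207 cells, against 14.9, 14.0 and 14.9 CPM in shNC cells. The spread within each group was small and the groups did not overlap, yet the log2 fold change of -0.37 (standard error 0.113, edgeR adjusted p = 0.063) just missed the threshold. It passed without shNC replicate 1 at -0.35 (edgeR adjusted p = 0.0219) and under upper-quartile scaling (log2 fold change -0.43, edgeR adjusted p = 0.0465). Cenpl, its partner, had 0.10 (edgeR adjusted p = 0.644), and 0.15 without shNC replicate 1.

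The rest of the network gave no call with all libraries. Cenpc1, the CENP-C scaffold that links CENP-A to the MIS12 complex, had -0.09 (edgeR adjusted p = 0.74) and was lower without shNC replicate 1, at -0.25 (edgeR adjusted p = 0.0214). Cenpk had 8.46, 9.09 and 9.59 CPM in shZfp207 cells, against 18.1, 7.77 and 7.74 CPM in shNC cells, where shNC replicate 1 was above all 5 other libraries. Its log2 fold change was -0.30 with all libraries and 0.22 without that one (edgeR adjusted p = 0.583 and 0.154). Cenph, Cenpi and Cenpm, of the same CENP-H/I/K/M group, had -0.29, 0.16 and 0.33 with all libraries, and -0.01, 0.34 and 0.47 without it, where Cenpi passed (edgeR adjusted p = 0.0287). The histone-fold genes Cenpt and Cenpw had 0.00 and 0.02 with all libraries (edgeR adjusted p = 0.998 and 0.983), and -0.03 and 0.52 without shNC replicate 1 (edgeR adjusted p = 0.786 and 0.064).

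The corona genes Cenpe and Cenpf have, with Kntc1, the longest coding sequences of the list, and neither was called with all libraries. Cenpe, the kinesin that moves chromosomes to the metaphase plate, had 179, 202 and 184 CPM in shZfp207 cells, against 146, 269 and 256 CPM in shNC cells. Below all shZfp207 libraries was shNC replicate 1, and above them all were shNC replicates 2 and 3. This gave a log2 fold change of -0.25 (edgeR adjusted p = 0.482), and -0.48 without shNC replicate 1 (edgeR adjusted p = 0.00061). Cenpf, a large coiled-coil corona protein, had 155, 167 and 165 CPM in shZfp207 cells, against 95.7, 167 and 164 CPM in shNC cells, and differed by 0.19 with all libraries and -0.03 without shNC replicate 1 (edgeR adjusted p = 0.564 and 0.628). Cenpj, a centriole gene that shares the name but not the site, had -0.23 (edgeR adjusted p = 0.36), and -0.11 without shNC replicate 1.

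**Figure D4:**
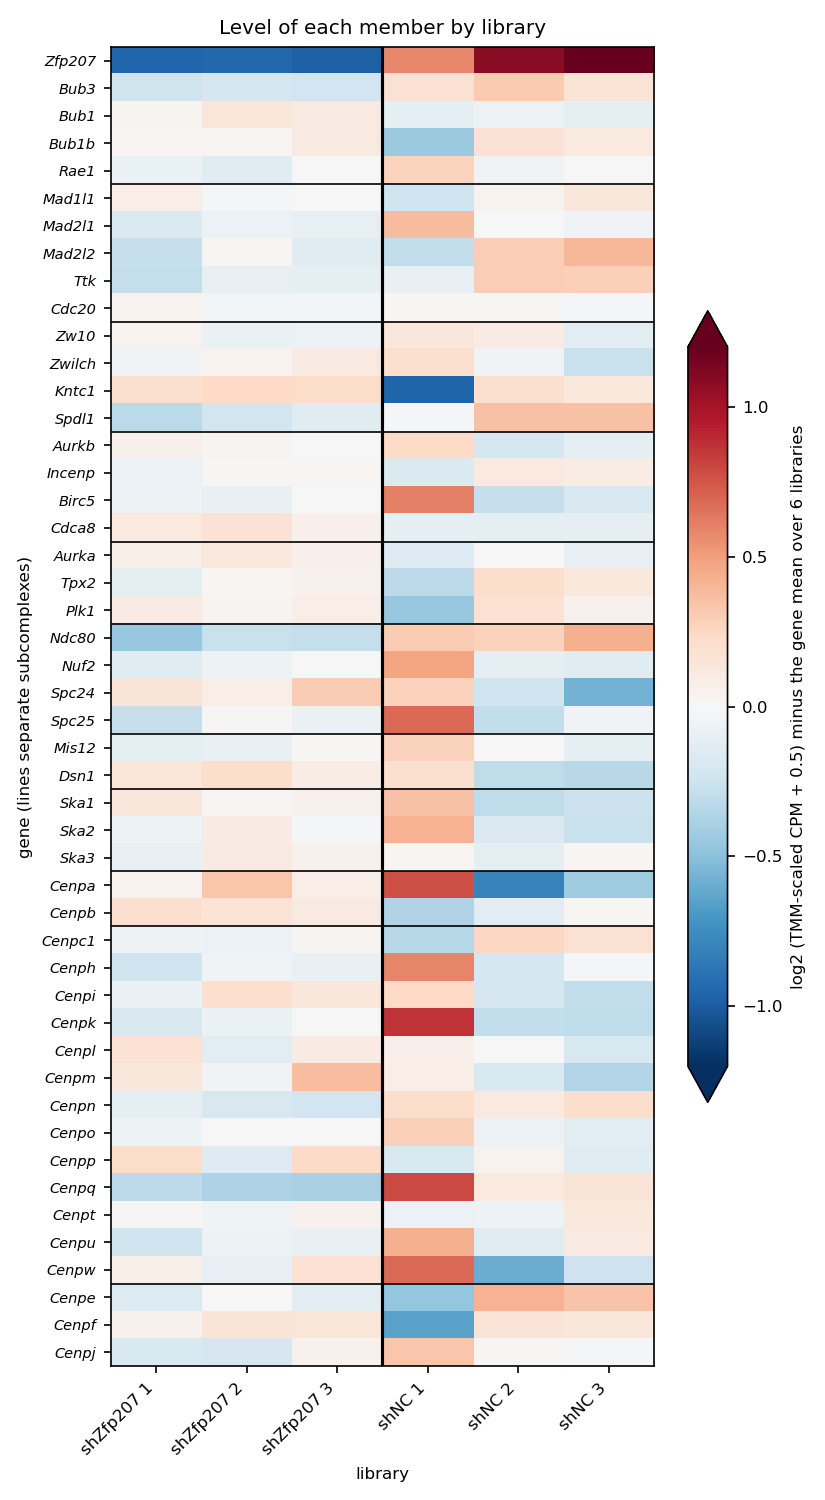
Level of each of the 48 genes (rows, lines separate subcomplexes) in each library (columns), as log2 of TMM-scaled CPM plus 0.5 minus the gene's mean over the 6 libraries. The column of shNC replicate 1 departs from shNC replicates 2 and 3 in both directions, for example upward at Cenpa and Cenpk and downward at Kntc1.

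At the 47 genes other than Zfp207, shNC replicate 1 lay further from the other controls than the mean of the shZfp207 libraries did. It was the highest of all 6 libraries at 20 and the lowest at 15, together 35. Its median distance from the mean of shNC replicates 2 and 3 was 0.40 on the log2 scale, whichever the sign. Those 2 controls were 0.09 apart, and the mean of the shZfp207 libraries was 0.18 from their mean. A mean of libraries carries less noise than a single library, so these distances are not like for like. The direction went with the length of the coding sequence, a relation looked at after the values were seen. Over the 15 genes with coding sequences of 0.258 to 0.894 kb, shNC replicate 1 was above shNC replicates 2 and 3 at 13, with a median of 0.64. Over the 15 with 1.82 to 8.99 kb it was below at 12, with a median of -0.36. Spearman's rho across the 47 genes was -0.70. The mean of the shZfp207 libraries minus the same 2 controls gave medians of 0.15 for the short class and -0.11 for the long class, and a rho of -0.43. Over 11245 genes with a coding sequence the corresponding rho was -0.41 for shNC replicate 1 and -0.04 for the shZfp207 libraries. These correlations are across genes, which are not independent replicates, and both differences use the same 2 controls. Without shNC replicate 1, 4 of the 15 genes of the short class were called higher and 2 lower. Of the 17 genes between the classes (0.918 to 1.81 kb), 5 were higher and 2 lower. Of the 15 in the long class, 2 were higher and 6 lower. Beside these stand 26.1% higher and 26.1% lower of all genes in that fit. The part of coding length in those calls was not tested. Bub3 and Ndc80, where shNC replicate 1 was within 0.05 of the other controls on the log2 scale, had nearly the same fold change with and without it.

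**Figure D5:**
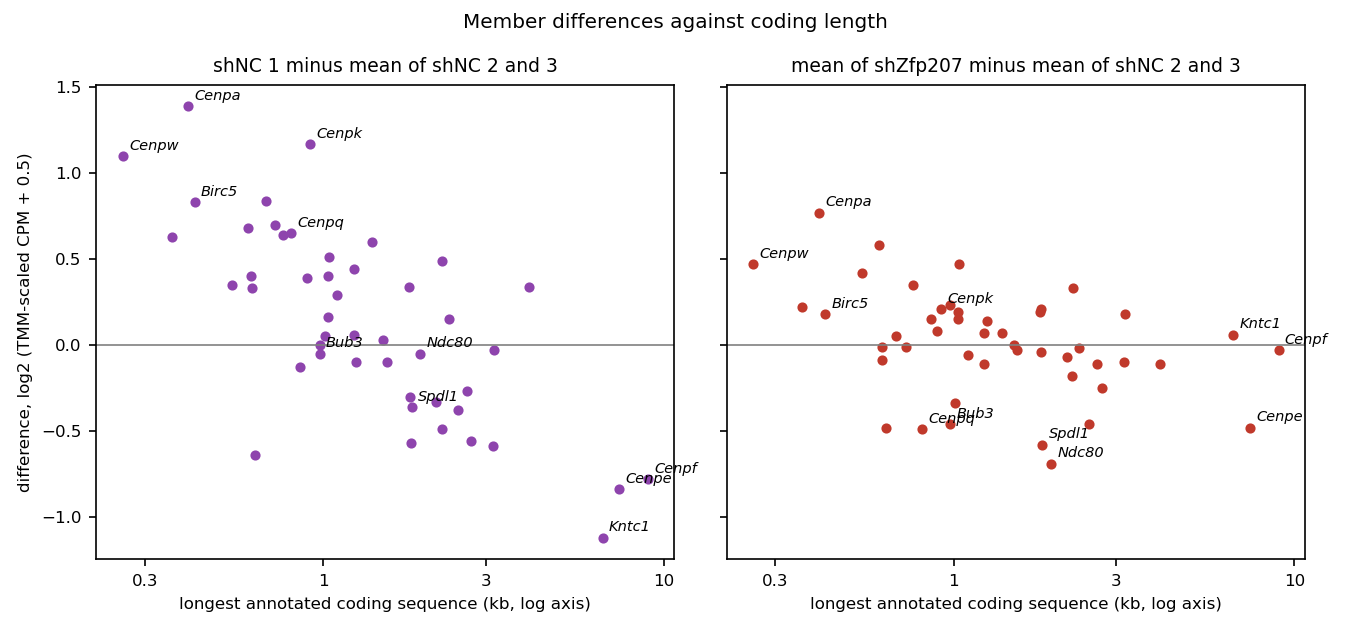
Log2 differences of the 47 genes other than Zfp207 (y axis) against the length of the longest annotated coding sequence (x axis, kb, log scale). The left panel plots shNC replicate 1 and the right panel the mean of the shZfp207 libraries, each minus the mean of shNC replicates 2 and 3; Spearman's rho was -0.70 on the left and -0.43 on the right.

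Genes around the 48 were taken as 4 lists, of which 59 genes were tested. There were 4 higher and 2 lower, 10.2% beside 20.6% of all genes, and 17 higher and 15 lower without shNC replicate 1, 54.2% beside 52.1%. Of 21 other kinetochore and centromere genes, 1 was lower and 0 higher. It was Mad2l1bp, which encodes p31comet, the protein that helps TRIP13 to take MAD2 out of the checkpoint inhibitor. Mad2l1bp had 14.8, 14.8 and 11.9 CPM in shZfp207 cells, against 22.9, 23.9 and 24.4 CPM in shNC cells. The groups were far apart and no control stood off, with a log2 fold change of -0.78 (standard error 0.127, edgeR adjusted p = 0.00978, and 0.0541 without shZfp207 replicate 3, the 1 library whose omission ended the call).

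Of 20 genes of the anaphase-promoting complex and separase, 1 was higher and 0 lower. Anapc7, a scaffold subunit, had 84.6, 88.2 and 90.1 CPM in shZfp207 cells, against 65.4, 67.9 and 72.1 CPM in shNC cells (log2 fold change 0.36, edgeR adjusted p = 0.0311). Of 16 G2/M cell cycle genes, 3 were higher and 1 lower, 25.0% beside 20.6%. Ccna2, which encodes cyclin A2, had 142, 153 and 147 CPM in shZfp207 cells, against 116, 83.5 and 89.3 CPM in shNC cells (log2 fold change 0.61, edgeR adjusted p = 0.0252). All shZfp207 libraries were above all controls, of which shNC replicate 1 was the nearest. Lin54 and Mybl2, which encode the DNA-binding subunit and the B-MYB partner of the MuvB complex, rose by 0.70 and 0.33 on the log2 scale (edgeR adjusted p = 0.0304 and 0.0423). Nusap1, a spindle microtubule-binding gene, fell to 62.6 ± 3.35 CPM in shZfp207 cells, against 86.2 ± 8.04 CPM in shNC cells (log2 fold change -0.46, edgeR adjusted p = 0.0254). The 5 calls for Anapc7, Ccna2, Lin54, Mybl2 and Nusap1 held without shNC replicate 1 and were each lost without any 1 of the other libraries (highest edgeR adjusted p = 0.17, for Mybl2), with the direction kept.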

How the data were processed

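RNA of 6 Hepa1-6 libraries was sequenced, 3 of shZfp207 and 3 of shNC cells, grouped by their titles. The authors deposited whole-number read counts per gene with no normalization, and FPKM values, which also divide by gene length and library total. Per the submitters' processing notes, the build was mm10 and the tools included featureCounts 1.5.0-p3 and HISAT2 2.0.5. Annotation and strand setting are not stated, so reads of overlapping genes on opposite strands may be mixed. Gene lengths read back from the 2 deposited tables varied between libraries by at most 0.0223% over 8801 genes with at least 100 counts in every library.

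Counts were tested in edgeR 4.0.16 (R 4.3.3) with filterByExpr, TMM scaling and a quasi-likelihood fit with the group as its only term. Tests were two-sided, and Benjamini-Hochberg adjustment ran over all 11975 genes tested, with a threshold of 0.05. The SE of a log2 fold change was its absolute value divided by the square root of its F statistic, so it follows from the test. The fit was repeated without shNC replicate 1 over 12108 genes. Alternatives were RLE and upper-quartile scaling, other filters, DESeq2 1.42.0, the replicate number as a block and each library left out. The procedure was also run on simulated data, but its recovery of changes as small as most of those called here is not given. Libraries of a group differed by more than counting noise, so none was treated as a duplicate deposit; this does not show that they are separate cultures. FPKM was used to order levels between genes and for ratios and medians set side by side between the groups, none of them tested. Coding lengths, strands and exonic overlap came from a GENCODE annotation of GRCm38, in which 35 of the 48 genes had the same start and end, and promoter sequences from RefSeq. Of 60 genes in the surrounding lists, 59 were found. The 48 genes and all lists were chosen with earlier results of these data known. All 48 may be named. From each surrounding list, up to 4 genes past the threshold with the smallest p are named, or the 2 most abundant where none passed. Sequences before RefSeq starts are shown for called genes other than Zfp207.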

Additional observations from a re-analysis of the deposited data

How the results depend on the processing

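Zfp207 and Ndc80 kept their call in all 12 alternatives. These were upper-quartile or RLE scaling, a filter of 1 count in total or of 10 in every library, DESeq2, the replicate block and each of the 6 libraries left out. The log2 fold change of Zfp207 was -1.92 with the block and -2.11 to -1.82 with single libraries left out. Among the 48 genes, 5 were called as reported, 6 under upper-quartile scaling (Cenpn added) and by DESeq2 (Cdca8 added), and 4 with RLE scaling or no filter (Spdl1 lost). Leaving out single libraries gave 2 to 22 of the 48 genes, 534 to 6313 of all genes against 2466 as reported, 2 to 11 subcomplexes with a call against 4, and 0 to 32 genes of the 4 surrounding lists against 6. The highest value of each was reached without shNC replicate 1, and the cause was not tested. Fewer libraries also leave fewer residual degrees of freedom.

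The replicate numbers are shared by the groups, but same-numbered libraries did not deviate together (correlations of -0.008, 0.008 and 0.053 across genes), so the numbers were not taken as pairs. With the replicate number as a block, 987 genes were called, with 2 of the 48 (Zfp207 and Ndc80), 2 subcomplexes and 1 gene of the surrounding lists. The block uses up residual degrees of freedom, and Ska2 then had 0.01 in place of -0.02.

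The median of all genes stayed within 0.1 of 0 on the log2 scale under every scaling. Upper-quartile scaling, where it was -0.088, turned the sign of Mad1l1 to -0.03, Aurkb to -0.02, Ska3 to -0.01 and Cenpt and Cenpw to -0.06. With single libraries left out, the following log2 fold changes took both signs, and none of these genes was called with all libraries. Checkpoint and passenger genes spanned -0.10 to 0.19 for Bub1b, -0.07 to 0.11 for Mad1l1, -0.04 to 0.00 for Cdc20, -0.04 to 0.19 for Zwilch, -0.04 to 0.19 for Aurkb, -0.11 to 0.03 for Incenp, -0.31 to 0.18 for Birc5, -0.18 to 0.07 for Tpx2 and -0.05 to 0.25 for Plk1. Outer kinetochore genes spanned -0.27 to 0.07 for Nuf2, -0.48 to 0.05 for Spc25, -0.01 to 0.36 for Ska1, -0.14 to 0.23 for Ska2 and -0.03 to 0.32 for Cenpf. Centromere genes spanned -0.13 to 0.77 for Cenpa, -0.25 to 0.02 for Cenpc1, -0.51 to 0.22 for Cenpk, -0.14 to 0.09 for Cenpo, -0.03 to 0.07 for Cenpt and -0.24 to 0.52 for Cenpw. Depth limits the precision of low genes such as Cenpp, which had 41 to 59 counts per shNC library.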
